A study of Mus musculus with 28 samples.

Results

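10 chemokine genes that dendritic cells are known to express were followed through sorted mouse spleen dendritic cells: Ccl3, Ccl4, Ccl5, Ccl6, Ccl9, Ccl17, Ccl22, Cxcl9, Cxcl10 and Cxcl16. They were chosen by name, and each was found once, so that 10 of the 55487 genes of the tables are described. The series comprised 28 RNA-seq libraries in 14 groups of 2, read in 2 experiments. Cells were type 1 conventional dendritic cells (cDC1), type 2 conventional dendritic cells (cDC2) or a population the submitters call hybrid DC, all sorted from spleens labelled C57BL/6; neither the sort gates nor the ages of the mice are given in the sources used here. Experiment 1 held WT cDC1, WT cDC2, and cDC1, hybrid cells and cDC2 from mice labelled Irf8 +32H/+ (written H/+) or Irf8 +32H/H (written H/H), which name an altered Irf8 +32 kb enhancer. Experiment 2 held WT cDC1, H/H cDC1, H/H hybrid cells, cDC1 and hybrid cells from H/H mice with the Nfil3 gene knocked out (written Nfil3-/-), and hybrid cells of H/H mice that carried the allele Zeb2 -165d123. All groups other than WT therefore carried the Irf8 allele, and hybrid cells were sampled from altered mice only. The replicates are called biological by the submitters, who do not say whether a library pools mice.

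Chemokines are small secreted proteins that bind receptors with 7 membrane passes and steer the movement of leukocytes. Dendritic cells use them to call T cells, NK cells and monocytes to themselves. Ccl3, Ccl4 and Ccl5 draw monocytes, NK cells and effector T cells, and Ccl6 and Ccl9 act through Ccr1. Ccl17 and Ccl22 share the receptor Ccr4, which regulatory and helper T cells carry. Cxcl9 and Cxcl10 are interferon-induced ligands of Cxcr3 on activated T cells and NK cells. Cxcl16 is made as a membrane-bound protein and binds Cxcr6.

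Several of the genes are neighbours. Ccl5, Ccl9, Ccl6, Ccl3 and Ccl4 lie within 139 kb of chromosome 11 (chr11:83525778-83664683, GRCm38), where Ccl4 is on the plus strand and the other 4 on the minus strand. Cxcl16 lies elsewhere on that chromosome, at chr11:70453983-70459984 on the minus strand. Cxcl9 (chr5:92321347-92328079) and Cxcl10 (chr5:92346638-92348889), both on the minus strand, are 18.6 kb apart, and Ccl22 (chr8:94745590-94751699) and Ccl17 (chr8:94810453-94812036), both on the plus strand, are 58.8 kb apart. Coordinates are those of the gene IDs in GENCODE M21, since the build behind the counts is not given in the sources used here. Annotated genes on the opposite strand overlap Cxcl10 (Art3), Cxcl16 (Zmynd15) and Ccl6 (E230016K23Rik); whether counting used strand is not stated, so reads of such partners cannot be told apart.

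The 250 bases before the start of 7 of the 10 genes were found in RefSeq (GRCm38.p6). Those of the neighbours Cxcl9 and Cxcl10 are printed because these genes share a receptor and differ in how they set cDC1 and cDC2 apart, as the values below show. Capitals mark matches, on either strand, to an NF-kB site core (GGGA and CC with 4 bases of any kind between) or to an interferon-stimulated response element core (GAAA and GAAA with 2 bases of any kind between). The windows are chr5:92328080-92328329 (minus strand) for Cxcl9 and chr5:92348890-92349139 (minus strand) for Cxcl10.
Cxcl9: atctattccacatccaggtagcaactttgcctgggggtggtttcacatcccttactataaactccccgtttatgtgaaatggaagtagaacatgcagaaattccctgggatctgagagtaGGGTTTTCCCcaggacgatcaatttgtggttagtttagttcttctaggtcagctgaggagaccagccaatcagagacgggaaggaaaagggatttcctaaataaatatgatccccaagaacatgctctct
Cxcl10: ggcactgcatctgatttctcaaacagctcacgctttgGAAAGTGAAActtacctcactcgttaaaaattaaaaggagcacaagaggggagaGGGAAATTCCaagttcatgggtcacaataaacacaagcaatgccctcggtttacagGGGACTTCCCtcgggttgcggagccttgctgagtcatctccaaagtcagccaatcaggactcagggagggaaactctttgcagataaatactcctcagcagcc
Cxcl10 had the response element core at 213 to 204 bases before its start and NF-kB cores at 159 to 150 and at 103 to 94, the last of which matched on both strands. One NF-kB core was found in Cxcl9, 130 to 121 bases before the start, and one in Ccl22, 131 to 122 bases before its RefSeq start, which lies inside the GENCODE gene given above. Of all 32851 windows of this length, 3.0% held the response element core and 17.6% the NF-kB core. The gamma-activated sequence (TTC and GAA, 3 bases apart), held by 7.0% of windows, was found in Ccl17 only, 99 to 91 bases before the start, and the ETS-IRF core (GGAA and GAAA, 2 bases apart), held by 2.3%, in none of the 7. Ccl3, Ccl6 and Ccl9 matched none of the 4 motifs. These matches describe letters and are not evidence of binding.

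Library totals were 23393634 to 38174251 counts in experiment 1 and 17540496 to 22708493 counts in experiment 2. Markers of cDC1 had a summed level of 4194 to 7802 CPM (counts scaled by the TMM-adjusted library total) in cDC1, 2111 to 2916 in hybrid cells and 488 to 641 in cDC2 of experiment 1, and markers of cDC2 one of 27.1 to 223 CPM in cDC1 against 1264 to 2008 in the other 2 populations. Irf8 mRNA was 2580 and 1960 CPM in WT cDC1, 1221 and 1091 CPM in H/+ cDC1 and 837 and 831 CPM in H/H cDC1 of experiment 1. Nfil3 mRNA was 2.76 to 5.70 CPM in the 4 Nfil3-/- libraries and 30.9 to 55.3 CPM in the other libraries of experiment 2. In experiment 1, where no group carried the Nfil3 knockout, Nfil3 mRNA was only 6.03 to 11.7 CPM. The cause of this difference between the experiments was not tested. Zeb2 was 10.3 and 19.6 CPM in the Zeb2 -165d123 libraries against 38.6 and 46.9 CPM in H/H hybrid cells. Xist was present in replicate 2 of every group of experiment 1 and in 3 libraries of experiment 2, so the libraries differ in the sex of the mice. Those 3 were replicate 2 of Nfil3-/- cDC1, of Nfil3-/- hybrid cells and of Zeb2 -165d123 hybrid cells. No WT cDC1, H/H cDC1 or H/H hybrid library of experiment 2 held Xist. Sex is therefore partly confounded with the Nfil3 and Zeb2 alleles in their comparisons with H/H cells. In sorted bulk samples, fewer cells of a type and less RNA per cell cannot be told apart.

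Per kb of exon, Ccl5 and Ccl4 were the most abundant of the 10 chemokine mRNAs in all 14 groups. In WT cDC1 they stood at 316 and 302 CPM per kb, followed by Cxcl9 at 93.2 CPM per kb, and in WT cDC2 at 927 and 894 CPM per kb, followed by Ccl3 at 184 CPM per kb. The 10 together made up 1098 CPM (libraries 1083 and 1112) in WT cDC1 and 1882 CPM (1823 and 1942) in WT cDC2. They summed to 2343 CPM in H/+ hybrid cells (2546 and 2140) and 2011 CPM in H/H hybrid cells (2037 and 1986), which were above both H/+ and H/H cDC1. Ccl17 was close to silent everywhere, at 4 to 18 counts per library in experiment 1 and 1 to 14 in experiment 2, no more than 0.66 CPM; it passed the filter on low counts in experiment 1 and not in experiment 2, so that 10 and 9 members were tested. The range over groups was widest for Ccl9, whose highest group mean was 50.1 times its lowest in experiment 1 and 54.6 times in experiment 2, and narrowest for Cxcl10, at 1.67 and 1.55 times.

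**Figure D1:**
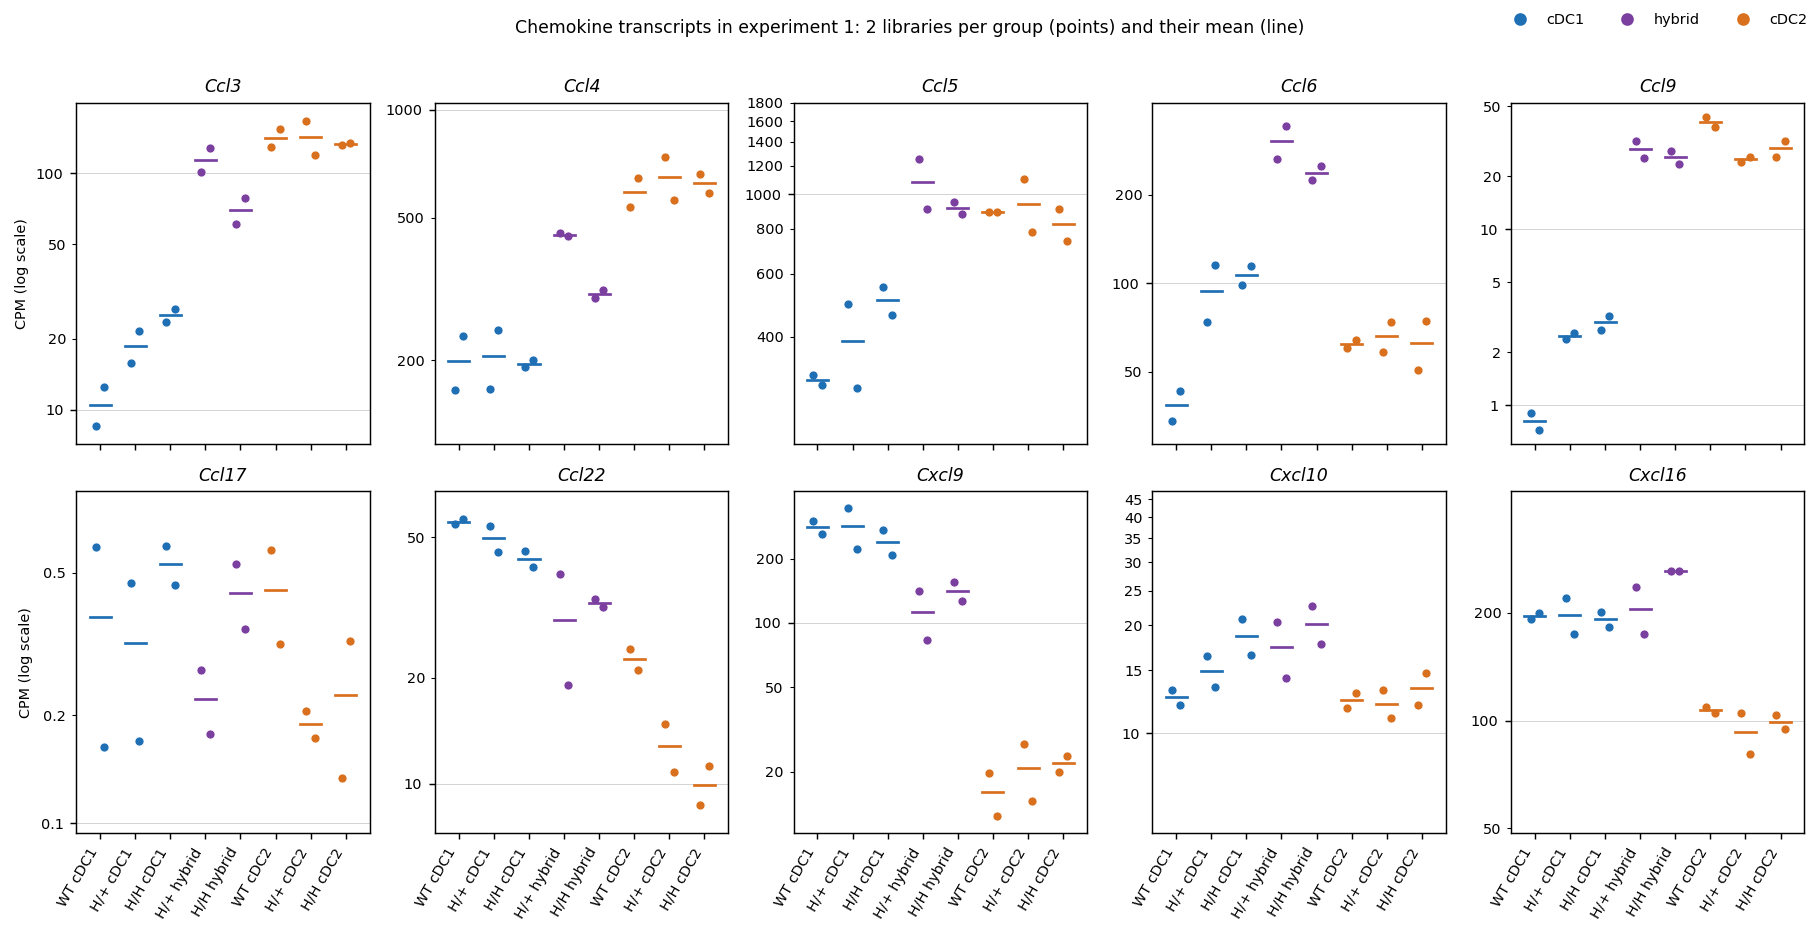
CPM of each chemokine in the libraries of experiment 1 (log axis), 1 panel per gene; points are single libraries and lines group means. Ccl9 ran from 0.812 CPM in WT cDC1 to 40.7 CPM in WT cDC2, and Cxcl9 from 16.1 CPM in WT cDC2 to 283 CPM in H/+ cDC1.

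The first question was how the chemokines differ between the conventional subsets of WT mice. Each subset had its own set: Ccl3, Ccl4, Ccl5, Ccl6 and Ccl9, the genes of the chromosome 11 cluster, were higher in cDC2, and Cxcl9, Ccl22 and Cxcl16 were higher in cDC1. Thus 8 of 10 members passed the test (edgeR quasi-likelihood, Benjamini-Hochberg adjusted p under 0.05 over 16036 genes), where 44% of all genes tested did; the members' median log2 difference (cDC1 minus cDC2) was -0.47 and that of all genes -0.07. The same 8 genes were those whose libraries did not overlap between the subsets. The share of all genes without such overlap was not counted, so this adds no support.

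Ccl9, a ligand of Ccr1, was 0.904 and 0.720 CPM in WT cDC1 and 43.6 and 37.8 CPM in WT cDC2. It was barely detected in the first and plain in the second, a 50.2-fold difference (log2 -5.65 ± 0.206 SE, edgeR adjusted p = 1.2e-11). Ccl3, which draws monocytes and T cells, was 8.57 and 12.4 CPM in cDC1 against 129 and 154 CPM in cDC2, 13.4-fold lower (log2 -3.74 ± 0.239, edgeR adjusted p = 4.89e-08). Its neighbour Ccl4 differed less, with 165 and 234 CPM against 536 and 644 CPM (log2 -1.57 ± 0.195, edgeR adjusted p = 2.5e-05). Ccl5, the most abundant per kb, was 313 and 293 CPM against 890 and 890 CPM (log2 -1.55 ± 0.247, edgeR adjusted p = 0.000333). For Ccl6 the gap was narrow, 34.0 and 43.1 CPM against 60.1 and 64.2 CPM (log2 -0.69 ± 0.235, edgeR adjusted p = 0.0327), and this call was lost without WT cDC1 replicate 1 or either WT cDC2 library (adjusted p up to 0.201).

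Cxcl9 was the member that marked cDC1. Its libraries stood at 301 and 261 CPM in WT cDC1 and 19.7 and 12.4 CPM in WT cDC2, 17.6-fold apart (log2 4.14 ± 0.414, edgeR adjusted p = 2.48e-05). Ccl22, a ligand of Ccr4, was 54.5 and 56.2 CPM against 24.1 and 21.0 CPM (log2 1.30 ± 0.262, edgeR adjusted p = 0.00155), and Cxcl16, the transmembrane ligand of Cxcr6, was 192 and 199 CPM against 109 and 105 CPM (log2 0.87 ± 0.15, edgeR adjusted p = 0.000244). Cxcl10, which shares receptor and neighbourhood with Cxcl9, did not part the subsets: its 13.2 and 12.0 CPM in cDC1 overlapped those of cDC2, which averaged 12.4 CPM (log2 0.02 ± 0.192, edgeR adjusted p = 0.935). Markers of monocytes and macrophages (12 genes, none at 0) summed to 170 to 263 CPM in the cDC1 libraries of experiment 1. In its cDC2 libraries they summed to 840 to 1056 CPM, the direction of the Ccl3, Ccl4, Ccl5 and Ccl9 differences. The highest of the 12 was Hmox1 in cDC1 and Adgre1 in cDC2, and how many went each way was not counted. The part of these markers in the chemokine differences was not tested. NK cell markers went the other way for Ccl5, at 155 to 252 CPM in cDC1 and 56.9 to 102 CPM in cDC2. Klrk1 was the highest of these 8 genes in every group, and how many of the 8 went each way was not counted.

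Other genes of the same circuits were set beside them. Of 9 chemokine receptor genes tested, 1 was higher and 5 were lower in WT cDC1. The higher one was Cxcr3, the receptor of Cxcl9 and Cxcl10, at 96.3 and 90.6 CPM against 3.19 and 3.30 CPM (log2 4.84, edgeR adjusted p = 7.8e-12). Ccr1, the receptor of Ccl9 and Ccl6, was 0.259 CPM in cDC1 and 11.1 CPM in cDC2 on average, the same side as those ligands, and the atypical receptor gene Ccrl2 was 44.6 against 396 CPM. Ccr4 mRNA did not exceed 0.25 CPM in any library. NF-kB pathway genes were lower in cDC1 for 14 of 17 and higher for none, among them Nfkb1 (104 against 504 CPM) and Nfkbiz (11.7 against 60.1 CPM). Immediate early genes were lower for 11 of 15, and interferon-stimulated genes lower for 18 and higher for 2 of 24. Of all genes tested in this comparison, 23.4% were lower and 20.5% higher in cDC1.

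Next, cDC1 with the altered enhancer were compared with WT cDC1. Ccl9, Ccl6 and, in H/H, Ccl3 rose in the altered cDC1, all of them higher in cDC2 than in cDC1 of WT mice. The cDC1-side genes Ccl22 and Cxcl16 did not pass the test in either genotype. In the altered mice the mean of Ccl6 was higher in cDC1 than in cDC2, a difference that was not tested. It was 94.4 CPM in H/+ and 106 CPM in H/H cDC1, against 65.9 and 62.6 CPM in the cDC2 of these genotypes. The H/+ libraries nearly touched, with 73.8 CPM in the lower cDC1 and 73.6 CPM in the higher cDC2 library. In H/+ cDC1, 2 of 10 members rose and none fell, where 1.47% of all genes passed. Ccl6 was 73.8 and 115 CPM against 34.0 and 43.1 CPM in WT (log2 1.29 ± 0.237, edgeR adjusted p = 0.0234), and Ccl9 was 2.38 and 2.57 CPM against 0.904 and 0.720 CPM (log2 1.62 ± 0.234, edgeR adjusted p = 0.00268). Neither gene overlapped between the genotypes, as was true of 5 of the 10 members. The share of all genes without overlap was not counted, so this adds no support. Markers of cDC2 (10 genes) summed to 27.4 and 27.1 CPM in WT, 108 and 131 CPM in H/+ and 215 and 223 CPM in H/H cDC1 of experiment 1, and to 22.2 and 24.3 CPM in WT and 316 and 572 CPM in H/H cDC1 of experiment 2. They moved in the direction of the Ccl3, Ccl6 and Ccl9 differences, and their part in these was not tested. Both H/+ calls were lost when only the 2 groups compared were fitted, and without WT cDC1 replicate 2; that of Ccl6 was also lost without WT cDC1 replicate 1 or H/+ cDC1 replicate 2 (adjusted p up to 0.183 for Ccl6 and 0.134 for Ccl9).

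In H/H cDC1 of experiment 1, 3 of 10 members rose and none fell, where 4.17% of all genes passed. Ccl9 reached 2.69 and 3.23 CPM (log2 1.87 ± 0.230, edgeR adjusted p = 0.000153), Ccl6 98.4 and 114 CPM (log2 1.46 ± 0.238, edgeR adjusted p = 0.00343) and Ccl3 23.6 and 26.6 CPM against 8.57 and 12.4 CPM (log2 1.25 ± 0.226, edgeR adjusted p = 0.00577). For each of these 3 genes both H/H libraries lay above both WT libraries, a share not counted over all genes. Ccl9 was still lower than in any cDC2 library of the experiment, the lowest of which had 24.2 CPM. Without WT cDC1 replicate 1 the Ccl6 call was lost (adjusted p = 0.0527), and the Ccl3 call was lost without that library or H/H cDC1 replicate 2 (adjusted p up to 0.0627).

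Experiment 2 repeated this comparison with other libraries. There 3 of 9 members rose and 1 fell, where 6.32% of all genes passed. The 3 that rose were again Ccl9 (4.51 and 3.04 CPM against 0.380 and 0.655 CPM, log2 2.84 ± 0.348, edgeR adjusted p = 5.65e-05), Ccl6 (162 and 129 CPM against 31.6 and 36.3 CPM, log2 2.10 ± 0.170, edgeR adjusted p = 8.09e-07) and Ccl3 (134 and 74.0 CPM against 16.3 and 23.7 CPM, log2 2.38 ± 0.344, edgeR adjusted p = 0.00438). The Ccl3 call was lost without WT cDC1 replicate 1 (adjusted p = 0.061). Cxcl9 was 261 and 272 CPM against 365 and 472 CPM in WT (log2 -0.65 ± 0.152, edgeR adjusted p = 0.0153), a fall that was lost without WT cDC1 replicate 2 or either H/H cDC1 library and when only the 2 groups were fitted (adjusted p up to 0.169). No member passed the test for a difference between the experiments in the H/H effect, where 0.0121% of all genes did; 4 members had an unadjusted edgeR p under 0.05 and DESeq2 called none. The log2 differences between the experiments ranged from 1.13 ± 0.424 for Ccl3 to -0.75 ± 0.312 for Ccl5 among the 9 members tested in both.

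**Figure D2:**
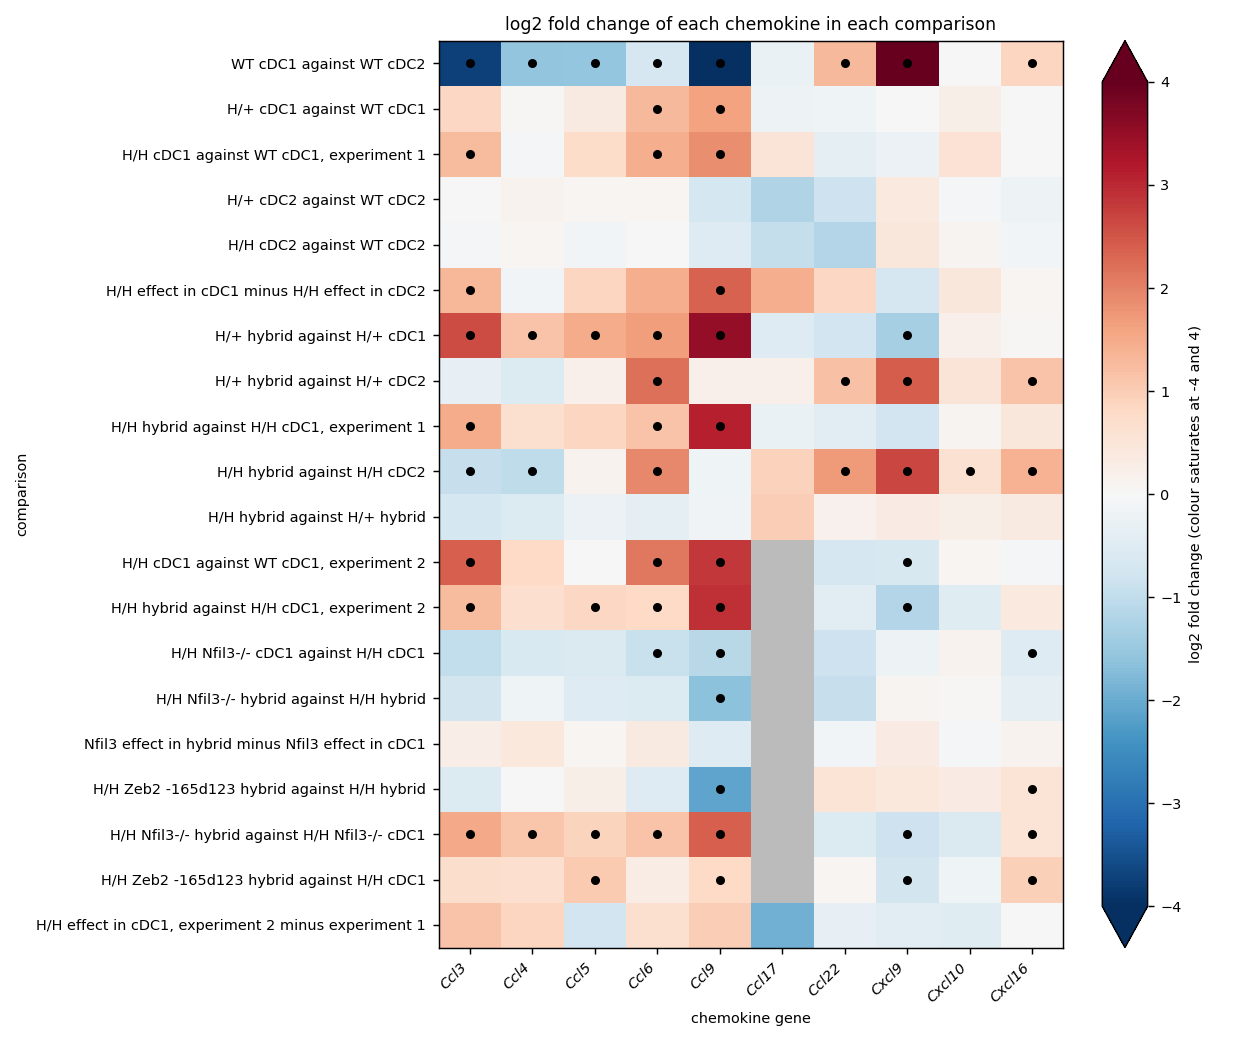
Heat map of the log2 fold change of each chemokine (columns) in each comparison (rows), red for higher and blue for lower with the colour saturating at -4 and 4; dots mark an adjusted p under 0.05 and grey cells were not tested. The Ccl9 column holds the deepest blue for WT cDC1 against WT cDC2 (-5.65) and is red with a dot in all 3 comparisons of altered with WT cDC1 (1.62 to 2.84).

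In cDC2 the altered enhancer left no chemokine past the test. With edgeR 0 of 10 members passed in H/+ cDC2 and 0 of 10 in H/H cDC2, where 0.0249% and 0.0811% of all genes did. In each of the comparisons 2 members had an unadjusted p under 0.05 and DESeq2 called 1. Ccl22 had the largest difference of the genes above 1 CPM, at 14.8 and 10.8 CPM in H/+ and 8.70 and 11.2 CPM in H/H against 24.1 and 21.0 CPM in WT cDC2 (log2 -0.81 ± 0.268 and -1.18 ± 0.271, edgeR adjusted p = 0.808 and 0.401). Ccl9 was 24.2 and 25.8 CPM in H/+ and 25.7 and 31.8 CPM in H/H against 43.6 and 37.8 CPM (log2 -0.70 ± 0.147 and -0.50 ± 0.146, edgeR adjusted p = 0.272 and 0.717). Both genes lay below WT in every altered library without passing. In each comparison 4 of 10 members did not overlap, a share not counted over all genes. The 2 WT cDC2 libraries serve both comparisons.

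The difference of the H/H effect between cDC1 and cDC2 was tested as an interaction. It passed for Ccl9 (2.37 ± 0.273 on the log2 scale, edgeR adjusted p = 0.000174) and Ccl3 (1.34 ± 0.307, edgeR adjusted p = 0.0456), 2 of 10 members, where 1.9% of all genes passed. For Ccl6 the difference was 1.45 ± 0.331 and the adjusted p fell just above the threshold. The Ccl3 interaction was lost without any single one of 7 of the 8 libraries, WT cDC1 replicate 2 being the exception (adjusted p up to 0.167), while that of Ccl9 stayed past the threshold under each alternative run (adjusted p up to 0.00324).

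Interferon-stimulated genes rose in the altered cDC1, while Cxcl9 and Cxcl10, themselves interferon-inducible, did not pass the test for a rise. Of 24 genes of that list 10 rose in H/+ cDC1 (median log2 1.05), 19 in H/H cDC1 of experiment 1 (median 1.97) and 20 in those of experiment 2 (median 1.77), and none fell. The share of all genes that rose was 1.16%, 2.7% and 4.37% in turn. Ifit1, an antiviral RNA-binding protein, was 9.11 and 9.55 CPM in H/H cDC1 against 1.38 and 1.05 CPM in WT cDC1 of experiment 1. Over the same libraries Cxcl10 was 20.9 and 16.6 CPM against 13.2 and 12.0 CPM (log2 0.57 ± 0.191, edgeR adjusted p = 0.127), without overlap, and it passed with no filter on low counts (adjusted p = 0.0136). Cxcl9 was 271 and 209 CPM against 301 and 261 CPM (log2 -0.23 ± 0.360, edgeR adjusted p = 0.851). In experiment 2 Cxcl10 was 21.4 and 31.7 CPM in H/H and 22.7 and 27.2 CPM in WT cDC1, which overlapped (log2 0.09 ± 0.358, edgeR adjusted p = 0.953). Of 13 genes of the interferon signalling pathway 1 rose in experiment 1 and 2 in experiment 2, Stat2 in both (101 against 66.0 CPM and 71.6 against 45.2 CPM).

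**Figure D3:**
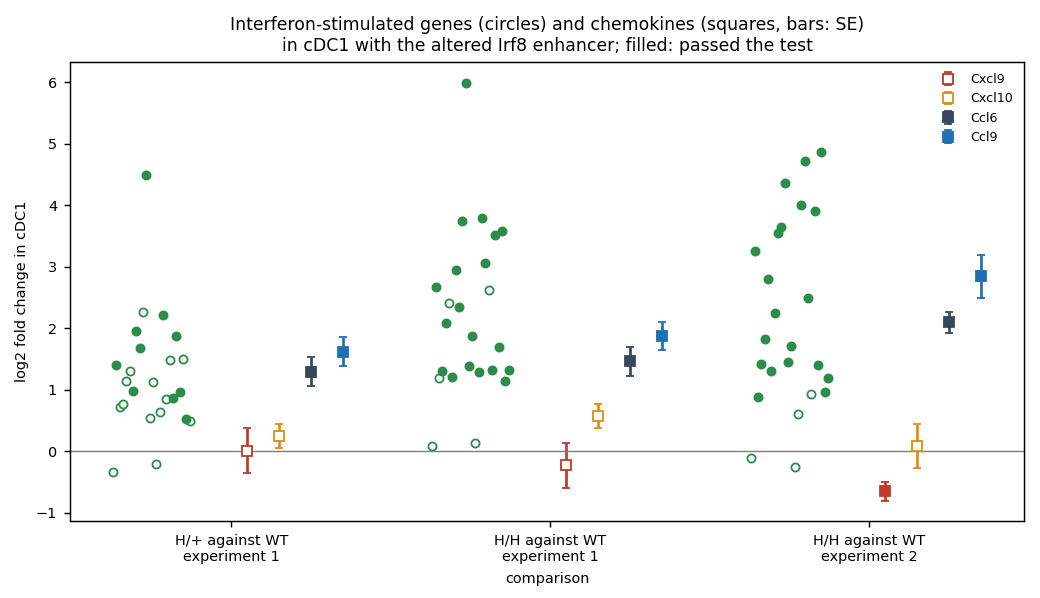
Log2 fold changes in altered against WT cDC1 of the 24 interferon-stimulated genes (circles) and of Cxcl9, Cxcl10, Ccl6 and Ccl9 (squares with SE bars), filled where the test was passed. In H/H against WT cDC1 of experiment 1 the list's median was 1.97, with Cxcl10 at 0.57 and Cxcl9 at -0.23.

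Hybrid cells were then compared with the cDC1 and cDC2 of the same mice. Their chemokine mRNAs joined both sets: in both genotypes Ccl3 and Ccl9 were higher than in cDC1, Cxcl9, Ccl22 and Cxcl16 higher than in cDC2, and Ccl6 higher than in either. Ccl4 and Ccl5 passed against cDC1 in H/+ mice and not in H/H mice of experiment 1. In H/+ mice 5 members were higher and 1 lower than in cDC1 (16.5% of all genes passed), and 4 were higher and none lower than in cDC2 (19% of all genes). In H/H mice of experiment 1, 3 were higher and none lower than in cDC1 (7.85% of all genes), and 5 were higher and 2 lower than in cDC2 (25.4% of all genes). These comparisons share the hybrid libraries of a genotype.

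Ccl6 was 265 and 342 CPM in H/+ hybrid cells, 73.8 and 115 CPM in H/+ cDC1 and 58.2 and 73.6 CPM in H/+ cDC2. The hybrid libraries stood above all others, by log2 1.68 ± 0.237 over cDC1 (edgeR adjusted p = 0.000364) and 2.20 ± 0.241 over cDC2 (edgeR adjusted p = 5.06e-05). H/H hybrid cells had 224 and 250 CPM, against 98.4 and 114 CPM in H/H cDC1 and 50.7 and 74.5 CPM in H/H cDC2 (log2 1.16 ± 0.234 and 1.92 ± 0.239, edgeR adjusted p = 0.00954 and 0.000102). The H/H difference from cDC1 was lost without H/H hybrid replicate 2 or either H/H cDC1 library (adjusted p up to 0.0898). Cxcl16 and Cxcl10 had their highest group mean of experiment 1 in H/H hybrid cells too, Cxcl16 with 262 and 261 CPM against 201 and 183 CPM in H/H cDC1 (log2 0.45 ± 0.149, edgeR adjusted p = 0.0885).

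Ccl9 in hybrid cells was at the cDC2 level: 31.6 and 25.3 CPM in H/+ and 27.8 and 23.3 CPM in H/H, overlapping the cDC2 libraries of each genotype (log2 0.19 ± 0.148 and -0.17 ± 0.148, edgeR adjusted p = 0.434 and 0.449). Over cDC1 it was higher by log2 3.52 ± 0.177 in H/+ (edgeR adjusted p = 2.6e-09) and 3.11 ± 0.173 in H/H (edgeR adjusted p = 2.11e-08). Ccl5 was likewise near cDC2, at 1257 and 912 CPM in H/+ and 953 and 883 CPM in H/H hybrid cells, against 1100 and 783 CPM and 910 and 741 CPM in cDC2 (log2 0.20 ± 0.241 and 0.15 ± 0.241, edgeR adjusted p = 0.625 and 0.700). Its difference from cDC1 passed in H/+ (log2 1.47 ± 0.247, edgeR adjusted p = 0.00152), though not when only the 2 groups were fitted (adjusted p = 0.0533), and did not pass in H/H of experiment 1 (log2 0.86 ± 0.243, edgeR adjusted p = 0.0553).

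Ccl3 was 101 and 127 CPM in H/+ hybrid cells and 61.1 and 78.3 CPM in H/H hybrid cells. The former lay above H/+ cDC1 (15.8 and 21.5 CPM, log2 2.61 ± 0.226, edgeR adjusted p = 4.21e-06) and overlapped H/+ cDC2. H/H hybrid cells stood between H/H cDC1 (log2 1.47 ± 0.218, edgeR adjusted p = 0.00091) and H/H cDC2 at 131 and 134 CPM (log2 -0.93 ± 0.212, edgeR adjusted p = 0.00616), and the second of these calls was lost without H/H hybrid replicate 1 (adjusted p = 0.0714). Ccl4 was 297 and 314 CPM in H/H hybrid cells and 662 and 585 CPM in cDC2 (log2 -1.03 ± 0.192, edgeR adjusted p = 0.0016). Against the 191 and 200 CPM of H/H cDC1 it did not pass (log2 0.65 ± 0.192, edgeR adjusted p = 0.0596), nor did it in experiment 2 (828 and 642 CPM against 498 and 418 CPM, log2 0.68 ± 0.241, edgeR adjusted p = 0.0974). In H/+ hybrid cells it was 453 and 443 CPM, above the 166 and 243 CPM of cDC1 (log2 1.13 ± 0.193, edgeR adjusted p = 0.00117).

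Cxcl9 was intermediate in hybrid cells. H/+ hybrid libraries had 142 and 82.8 CPM, below the 344 and 223 CPM of H/+ cDC1 (log2 -1.34 ± 0.367, edgeR adjusted p = 0.0344) and above the 27.0 and 14.6 CPM of H/+ cDC2 (log2 2.43 ± 0.387, edgeR adjusted p = 0.00194). The first difference was lost without H/+ hybrid replicate 2 or H/+ cDC1 replicate 1, with no filter on low counts and when only the 2 groups were fitted (adjusted p up to 0.206). In H/H hybrid cells Cxcl9 was 156 and 126 CPM, 6.43-fold above cDC2 (edgeR adjusted p = 0.000771) and not past the test against cDC1 in experiment 1 (log2 -0.77 ± 0.362, edgeR adjusted p = 0.277). Ccl22 was also above cDC2, at 39.3 and 19.1 CPM in H/+ (log2 1.18 ± 0.270, edgeR adjusted p = 0.00864) and 33.3 and 31.6 CPM in H/H hybrid cells (log2 1.71 ± 0.273, edgeR adjusted p = 0.000632); the H/+ call was lost without H/+ hybrid replicate 1 or H/+ cDC2 replicate 2 and when only the 2 groups were fitted (adjusted p up to 0.140). Cxcl16 was above cDC2 by log2 1.14 ± 0.151 and 1.40 ± 0.152 (edgeR adjusted p = 7.51e-05 and 8.27e-06). For Cxcl10 the H/H difference from cDC2 was log2 0.60 ± 0.190 (22.6 and 17.8 CPM against 12.0 and 14.7 CPM, edgeR adjusted p = 0.0312), lost without either replicate 1 library (adjusted p up to 0.258).

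H/H and H/+ hybrid cells did not differ in any member with edgeR (0 of 10, 0.131% of all genes); 3 members had an unadjusted p under 0.05, and DESeq2 called none. The difference with the smallest p was that of Ccl3, -0.71 ± 0.211 on the log2 scale (edgeR adjusted p = 0.524). Monocyte and macrophage markers summed to 786 to 909 CPM in the hybrid libraries of experiment 1, near cDC2 and above the 170 to 263 CPM of cDC1. Their highest gene was Adgre1 in hybrid cells and Hmox1 in cDC1, and their part in the hybrid values was not tested. NF-kB pathway genes were higher in hybrid cells than in cDC1 for 6 of 17 in H/+ and 5 of 17 in H/H mice, and lower than in cDC2 for 6 and 5. Among all genes, 9.77% and 5.24% were higher than in cDC1, and 8.71% and 12.5% lower than in cDC2. Cxcr3, at 21.9 and 24.7 CPM in H/+ and 23.3 and 24.7 CPM in H/H hybrid cells, stood between the subsets as Cxcl9 did, lower than in cDC1 and higher than in cDC2 with the test passed in all 4 comparisons.

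**Figure D4:**
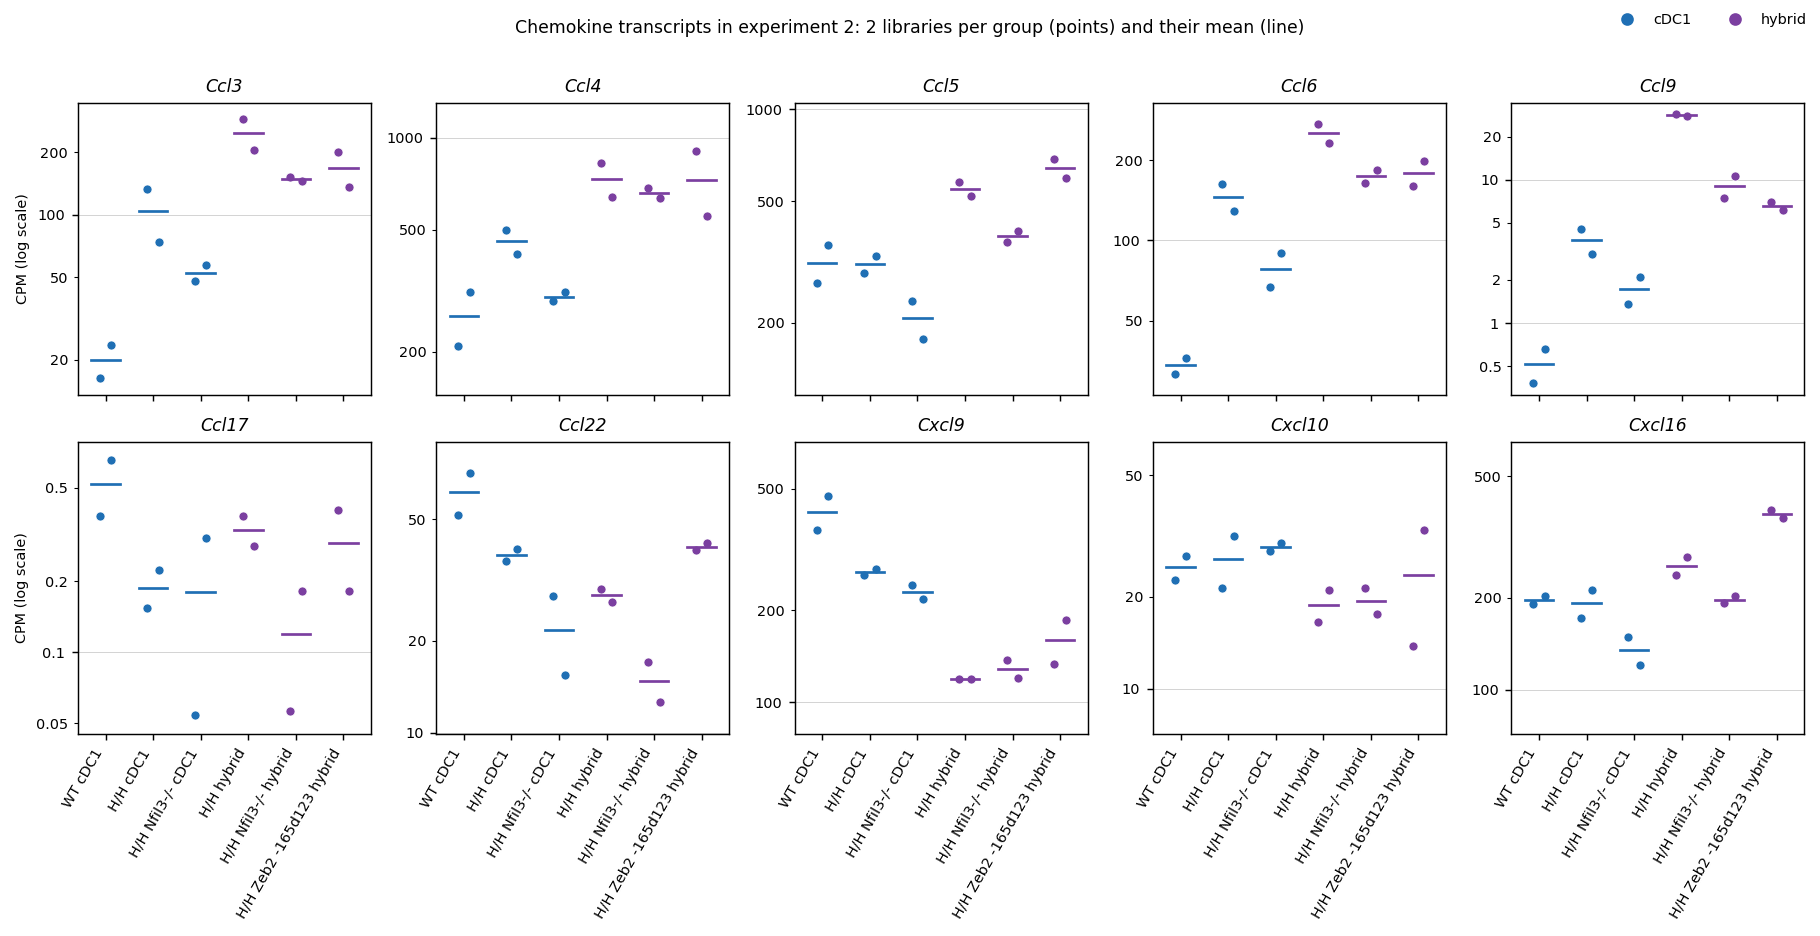
CPM of each chemokine in the libraries of experiment 2 (log axis), 1 panel per gene; points are single libraries and lines group means. Ccl9 was 28.2 CPM in H/H hybrid cells and 9.04 and 6.57 CPM in the hybrid cells with the Nfil3 and Zeb2 alleles.

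In experiment 2, Ccl9, Ccl3 and Ccl6 again passed the test as higher in H/H hybrid cells than in H/H cDC1, and here Ccl5 passed too. The Ccl5 difference was of like size in experiment 1 (log2 0.86 ± 0.243, edgeR adjusted p = 0.0553). Against H/H cDC1, 4 of 9 members were higher and 1 was lower, where 12.5% of all genes passed. Ccl9 was 28.8 and 27.7 CPM against 4.51 and 3.04 CPM (log2 2.91 ± 0.253, edgeR adjusted p = 1.33e-06), and Ccl5 was 579 and 519 CPM against 291 and 331 CPM (log2 0.82 ± 0.155, edgeR adjusted p = 0.00262). Ccl6 was 274 and 232 CPM against 162 and 129 CPM (log2 0.80 ± 0.162, edgeR adjusted p = 0.00424), lost without H/H hybrid replicate 1 (adjusted p = 0.0603). The Ccl3 difference (289 and 206 CPM against 134 and 74.0 CPM, log2 1.25 ± 0.323, edgeR adjusted p = 0.0412) was lost without H/H cDC1 replicate 2 or either hybrid library, when only the 2 groups were fitted and with a term for Xist (adjusted p up to 0.152). Cxcl9 was the lower one, at 119 and 120 CPM against 261 and 272 CPM (log2 -1.16 ± 0.154, edgeR adjusted p = 0.000125).

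Loss of Nfil3, a bZIP transcription factor that cDC1 development requires in WT mice, was tested within H/H cells. Of the chemokines raised in H/H cDC1, Ccl9 and Ccl6 were lower without it in cDC1, and Ccl9 in hybrid cells. In H/H Nfil3-/- cDC1, 3 of 9 members fell and none rose, where 3.03% of all genes passed; the median member difference was -0.60 and that of all genes -0.02. Ccl6 was 67.1 and 89.7 CPM against 162 and 129 CPM in H/H cDC1 (log2 -0.89 ± 0.164, edgeR adjusted p = 0.00613), a call lost without H/H cDC1 replicate 1 or Nfil3-/- cDC1 replicate 1 (adjusted p up to 0.085). It was above the 31.6 and 36.3 CPM of WT cDC1. Markers of cDC2 were 154 and 138 CPM in Nfil3-/- cDC1 against 316 and 572 CPM in H/H cDC1, and 869 and 1003 CPM against 1581 and 2049 CPM in hybrid cells. Those of cDC1 were 5523 and 5456 CPM against 3647 and 3918 CPM in cDC1, and 4224 and 4519 CPM against 2540 and 2469 CPM in hybrid cells. The cDC2 list thus fell in the direction of Ccl6 and Ccl9 and the cDC1 list rose, and the part of either in these differences was not tested. Ccl9 (1.35 and 2.09 CPM against 4.51 and 3.04 CPM, log2 -1.12 ± 0.293, edgeR adjusted p = 0.0498) and Cxcl16 (150 and 121 CPM against 173 and 212 CPM, log2 -0.51 ± 0.132, edgeR adjusted p = 0.0472) passed narrowly. Each lost its call with RLE size factors, a replicate block or only the 2 groups fitted, Cxcl16 also with a term for Xist. Among single libraries, Nfil3-/- cDC1 replicate 2 carried both calls, H/H cDC1 replicate 1 and Nfil3-/- cDC1 replicate 1 that of Ccl9, and H/H cDC1 replicate 2 that of Cxcl16 (adjusted p up to 0.439 and 0.415).

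In hybrid cells 1 of 9 members passed, where 3.73% of all genes did. This was Ccl9, at 7.42 and 10.7 CPM in H/H Nfil3-/- and 28.8 and 27.7 CPM in H/H hybrid cells, without overlap (log2 -1.64 ± 0.235, edgeR adjusted p = 0.00074). Ccl22 was 17.0 and 12.6 CPM against 29.5 and 26.7 CPM and did not pass (log2 -0.93 ± 0.246, edgeR adjusted p = 0.0592). Cxcl9 was 138 and 120 CPM against 119 and 120 CPM (log2 0.11 ± 0.153, edgeR adjusted p = 0.721). The Nfil3 effect was not shown to differ between hybrid cells and cDC1 for any member: 0 of 9 passed the edgeR interaction, where 0.00689% of all genes did, 0 had an unadjusted p under 0.05 and DESeq2 called none. Its log2 values ran from -0.52 ± 0.378 for Ccl9 to 0.44 ± 0.340 for Ccl4.

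Of 7 receptor genes tested without Nfil3, 1 rose and none fell in each cell type, with median log2 differences of -0.13 in cDC1 and -0.46 in hybrid cells. The one that rose was Cxcr3, to 91.6 and 75.6 CPM in Nfil3-/- cDC1 from 35.8 and 38.0 CPM (log2 1.18, edgeR adjusted p = 0.00122) and to 53.4 and 46.7 CPM from 15.3 and 12.2 CPM in hybrid cells (log2 1.86, edgeR adjusted p = 3.3e-05). Of the 24 interferon-stimulated genes 9 rose in cDC1 and 4 in hybrid cells, and none fell. Cxcl10 did not follow (28.3 and 30.0 CPM in Nfil3-/- cDC1 and 21.4 and 31.7 CPM in H/H cDC1, which overlapped). Of 15 immediate early genes 3 fell in cDC1 and 2 in hybrid cells, Egr1 and Jun in both. Among all genes, 1.34% rose and 1.69% fell in Nfil3-/- cDC1, and 1.93% rose and 1.8% fell in Nfil3-/- hybrid cells. Neutrophil markers summed to 22.5 to 78.7 CPM in the Nfil3-/- libraries and to no more than 13.6 CPM in any other library; their part in these differences was not tested.

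Without Nfil3 the contrast between hybrid cells and cDC1 persisted. Of 9 members 6 were higher and 1 was lower in Nfil3-/- hybrid cells than in Nfil3-/- cDC1, where 5.28% of all genes passed. Ccl9 differed by log2 2.39 ± 0.279 (edgeR adjusted p = 3.97e-05) and Ccl6, at 165 and 184 CPM against 67.1 and 89.7 CPM, by 1.15 ± 0.164 (edgeR adjusted p = 0.000367), and both stayed past the threshold under each alternative run. Higher too were Ccl3 (153 and 146 CPM against 48.2 and 57.1 CPM), Ccl4 (682 and 633 CPM against 293 and 313 CPM), Ccl5 (368 and 399 CPM against 236 and 178 CPM) and Cxcl16 (193 and 203 CPM against 150 and 121 CPM), and Cxcl9 was lower (138 and 120 CPM against 243 and 218 CPM). The libraries of these 5 genes did not overlap, a share not counted over all genes, and their edgeR adjusted p was 0.00225 to 0.0383. Ccl3 and Ccl4 lost their calls without any one of the 4 libraries (adjusted p up to 0.207 and 0.157), Ccl3 also with a term for Xist, Cxcl16 without any but Nfil3-/- cDC1 replicate 1 (up to 0.302), Ccl5 without Nfil3-/- cDC1 replicate 2 (0.0511) and Cxcl9 without Nfil3-/- hybrid replicate 2 (0.0616).

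The allele Zeb2 -165d123 was sampled in hybrid cells. ZEB2 is a transcriptional repressor that favours cDC2 over cDC1 fate. Against H/H hybrid cells, 1 of 9 members rose and 1 fell, where 4.03% of all genes passed. Ccl9 was 7.01 and 6.12 CPM against 28.8 and 27.7 CPM, 4.31-fold lower without overlap (log2 -2.11 ± 0.241, edgeR adjusted p = 0.000111). Cxcl16 was 387 and 364 CPM against 238 and 271 CPM (log2 0.56 ± 0.132, edgeR adjusted p = 0.0239), the highest level of this gene in any group of experiment 2; its call was lost when any one of the 4 libraries was left out (adjusted p up to 0.325). Ccl4 was 902 and 554 CPM against 828 and 642 CPM and overlapped (log2 -0.01 ± 0.240, edgeR adjusted p = 0.986).

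Nfil3-/- and Zeb2 -165d123 hybrid cells were both set against the same H/H hybrid libraries, so their differences share controls and are given side by side only. For Ccl9 the log2 differences were -1.64 and -2.11, for Cxcl16 -0.37 and 0.56, for Ccl22 -0.93 and 0.53, for Ccl5 -0.52 and 0.22, and for Ccl6 -0.54 and -0.50. Of 7 receptor genes tested in Zeb2 -165d123 hybrid cells, 2 rose and 2 fell, with a median log2 difference of -0.15. Among them Ccr3, a receptor of Ccl5, was 22.7 and 17.6 CPM against 3.10 and 1.98 CPM (log2 2.98, edgeR adjusted p = 0.004), Cxcr3 was 26.4 against 13.8 CPM and the atypical receptor gene Ackr1 was 0.405 against 2.36 CPM (edgeR adjusted p = 0.046). Immediate early genes rose for 4 of 15, among them Jun (483 against 314 CPM). Among all genes, 2.23% rose and 1.79% fell in Zeb2 -165d123 hybrid cells. Monocyte and macrophage markers summed to 1166 and 1210 CPM in these libraries, where Hmox1 was the highest. In H/H hybrid cells, where it was Adgre1, they summed to 718 and 644 CPM, the opposite direction to Ccl9. Markers of cDC2 went in its direction, at 1348 and 1351 CPM against 1581 and 2049 CPM; their part in the Ccl9 difference was not tested.

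Compared with H/H cDC1, Zeb2 -165d123 hybrid cells were higher in 3 of 9 members and lower in 1, where 21.1% of all genes passed. Higher were Ccl5 (689 and 593 CPM against 291 and 331 CPM, log2 1.04 ± 0.156, edgeR adjusted p = 0.000291), Cxcl16 (log2 0.96 ± 0.132, edgeR adjusted p = 0.000144) and Ccl9 (log2 0.80 ± 0.257, edgeR adjusted p = 0.0356). Cxcl9 was the lower one, at 134 and 185 CPM against 261 and 272 CPM (log2 -0.74 ± 0.153, edgeR adjusted p = 0.00309). The Ccl9 call was lost without H/H cDC1 replicate 2 or either Zeb2 -165d123 library, when only the 2 groups were fitted and with a term for Xist (adjusted p up to 0.232). This comparison was added after earlier results were seen.

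The profile of each member over the 14 groups was set against those of 11497 other genes, by the root mean square (RMS) difference of log2 CPM after centring each experiment on its own mean. The nearest to Cxcl9, whose own spread was 1.34, were Lima1 at an RMS difference of 0.14 and Met at 0.20 log2 units. For Ccl3 the nearest were Il1r2 (0.21) and Tmem176b (0.23), for Ccl4 Dclre1c and Peg13, for Ccl5 Ypel3 and Irs2, for Cxcl16 Nab2 and Tspan33, and for Cxcl10 Slc19a2 and Cited2. For Ccl6 the nearest was Tnfrsf26 (0.36), and for Ccl9, whose own spread was 1.89, Il1rn (0.43), which encodes an interleukin-1 receptor antagonist. For Ccl22 the nearest were Arhgap31 (0.29) and Treml4 (0.32). The points share libraries, and these distances are descriptions.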

How the data were processed

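RNA-seq libraries were made from sorted splenic cells with a SMARTer Ultra Low kit, per the labels' protocols. The submitters' processing notes name bcl2fastq, DRAGEN and edgeR; versions, genome build and strand setting are not given in the sources used here. The authors deposited expected counts (estimated reads per Ensembl gene, not scaled), in 1 table per experiment; 10.8% and 10.2% of values were not whole and were rounded. 287 repeated lines per table were dropped, leaving 55487 genes.

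Each experiment was fitted apart with edgeR 4.0.16 in R 4.3.3: all libraries, 1 coefficient per group, filterByExpr, TMM scaling, robust quasi-likelihood F tests, Benjamini-Hochberg adjustment over 16036 genes (experiment 1, 8 residual degrees of freedom) or 14504 genes (experiment 2, 6). The difference between experiments was fitted on both tables together (16527 genes). The threshold was an adjusted p of 0.05. CPM use TMM-scaled totals. Values after ± are standard errors of log2 fold changes. The share of all genes whose libraries did not overlap was not counted for any comparison, so a lack of overlap is given as description only. The fitting script was tested on simulated data. DESeq2 1.42.0 was an alternative, as were RLE size factors, no filter, a replicate block, an Xist term, only the groups compared, and leaving out each library.

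Members and gene lists were chosen with earlier results of these data known, and lists come from general knowledge. Named are all 10 members, the receptors Ccr1, Ccr3, Ccr4, Ccr8, Cxcr3 and Cxcr6 where they bear on a comparison, up to 4 called genes per list, and the 2 nearest profiles for members reaching 10 CPM; Ccrl2, Ifit1, Stat2 and Egr1 with Jun stand for their lists, chosen after their values were seen. Ccr8 and Cxcr6 were not described, and some genes of the rule are not reported here. Motifs were searched in RefSeq sequences. Neither experiment's replicate numbers met the rule for pairing (correlations of deviations 0.04 to 0.342 and -0.205 to 0.231), so none was assumed; in experiment 1 every replicate 2 and no replicate 1 holds Xist, so the block there is also an Xist term.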

Additional observations from a re-analysis of the deposited data

Results flagged for a closer look

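The effect of the H/H genotype at the Irf8 enhancer differed between cDC1 and cDC2 for 2 chemokines by a test of the difference itself. For Ccl9 the log2 change in cDC1 exceeded that in cDC2 by 2.37 (edgeR adjusted p = 0.000174): the mRNA rose in H/H cDC1, by 1.87, and was -0.50 in H/H cDC2 without passing. For Ccl3 the difference was 1.34 (edgeR adjusted p = 0.0456), with 1.25 in cDC1 and -0.09 in cDC2. The Ccl3 call depended on single libraries, as given above. Ccl6 had a difference of 1.45 with an adjusted p just above the threshold. It was called with RLE size factors, no filter on low counts, a replicate block, DESeq2 and only the groups compared. The line between Ccl3 and Ccl6 is therefore one of the threshold. The cause was not tested.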

How the results depend on the processing

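Of 192 member tests 61 passed the threshold, 35 of them under every alternative run, while 26 lost the call under at least 1 and 39 that did not pass gained one. Of 1922 alternative values 1751 kept their side of the threshold, 81 lost and 90 gained a call. No called value changed sign, and 84 values that passed under neither setting did. In the cases named here the cause was not tested.

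With no filter on low counts the number of members called moved from 0 to 2 in H/+ cDC2, 0 to 1 in H/H cDC2, 2 to 4 in the interaction of cell type and H/H, 3 to 5 in H/H hybrid cells against cDC1 of experiment 1, 0 to 2 in H/H against H/+ hybrid cells, 3 to 6 and 1 to 4 for Nfil3 loss in cDC1 and hybrid cells, and 2 to 4 for Zeb2 -165d123. DESeq2 called 1 member in each cDC2 comparison, 5 in H/H hybrid cells against cDC1 of experiment 1, and 5 and 4 for Nfil3 loss in cDC1 and hybrid cells. Fitting only the groups compared gave 0 for H/+ cDC1, 1 for H/H cDC2, 4 for the interaction, 8 for H/H hybrid cells against cDC1 of experiment 1, 1 for H/H against H/+ hybrid cells, and 1 and 6 for Nfil3 loss. RLE size factors gave 1 for Nfil3 loss in cDC1, and the Xist term 2 for Nfil3 loss in hybrid cells. The replicate block gave 4 for the interaction, 7 for H/H hybrid cells against cDC1 of experiment 1 and 1 for Nfil3 loss in cDC1; the numbers are not known to pair the samples, and in experiment 1 they coincide with Xist. Calls gained under the block were Ccl4, Ccl5, Cxcl9 and Cxcl16 in that hybrid comparison, Ccl3 in H/+ cDC1, Ccl5 in H/H cDC1, Ccl5 and Ccl6 in the interaction, Ccl22 in H/+ hybrid cells against cDC1 and Cxcl10 against cDC2.

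Leaving out 1 library gave 0 to 2 members for H/+ cDC1, 1 to 3 for H/H cDC1 of experiment 1, 1 to 2 for the interaction, 3 to 5 for H/H hybrid cells against cDC1 of experiment 2, 1 to 3 for Nfil3 loss in cDC1, 1 for Zeb2 -165d123 (each library) and 3 to 5 for Nfil3-/- hybrid cells against Nfil3-/- cDC1. Counts over all genes ranged over the alternatives from 40 to 674 (main 236) for H/+ cDC1, 336 to 1051 (668) for H/H cDC1 of experiment 1, 0 to 84 (4) and 7 to 79 (13) for H/+ and H/H cDC2, 189 to 568 (305) for the interaction, 1683 to 3049 (2639) and 1797 to 3601 (3045) for H/+ hybrid cells against cDC1 and cDC2, 568 to 1772 (1259) and 2520 to 4665 (4078) for H/H, and 3 to 153 (21) for H/H against H/+ hybrid cells. In experiment 2 they ranged from 548 to 1129 (916) for H/H cDC1, 693 to 1892 (1811) for H/H hybrid cells against cDC1, 167 to 772 (440) and 128 to 1953 (541) for Nfil3 loss in cDC1 and hybrid cells, 0 to 23 (1) for their interaction, 128 to 900 (584) for Zeb2 -165d123, 347 to 1018 (766) for Nfil3-/- hybrid cells against Nfil3-/- cDC1, 1658 to 3122 (3056) for H/H cDC1 set against hybrid cells with the Zeb2 allele, and from 1 to 16 (2) for the difference between experiments. Groups of 2 libraries limit precision, and Ccl17 was too low to compare.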

Other observations

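Of 25 other chemokine genes listed, 15 passed the filter on low counts in experiment 1. Of these 1 was higher and 2 were lower in WT cDC1 than in WT cDC2, or 20%, where 44% of all genes tested passed. Ccl7, which draws monocytes, was higher (log2 1.58), and Cxcl2 and Cxcl1, which draw neutrophils, were lower, Cxcl2 at 1.54 against 4.85 CPM and Cxcl1 at 0.262 against 1.07 CPM. In experiment 2 Cxcl2 was 26.0 CPM in H/H and 5.58 CPM in WT cDC1 (edgeR adjusted p = 0.0064), and Ccl2 was 48.2 CPM in Zeb2 -165d123 and 109 CPM in H/H hybrid cells (edgeR adjusted p = 0.031).

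Proteases that shed or trim chemokines differed between the subsets. Mmp12, a metalloproteinase, was 0.959 CPM in WT cDC1 and 121 CPM in WT cDC2 (edgeR adjusted p = 5.4e-10). It rose in H/H cDC1 of both experiments (4.62 against 0.959 CPM and 6.84 against 0.543 CPM) and fell in Nfil3-/- hybrid cells (6.18 against 42.3 CPM) and in Zeb2 -165d123 hybrid cells (17.6 against 42.3 CPM). These are directions that Ccl9 also showed in those comparisons. Mmp9 was listed at 0 in both WT cDC1 libraries and averaged 19.6 CPM in WT cDC2.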
